A study of Bos taurus with 15 samples.

Results

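The genes described are those through which a thymus cell meets a glucocorticoid: the glucocorticoid receptor NR3C1, its relative NR3C2, the enzymes that convert cortisol, and the chaperones that hold the receptor in its hormone-binding form. They were chosen by name, 10 genes in all. Of these, 9 had a probe among the 21475 bovine probes of the array, which cover 15498 named genes, and each of the 9 had 1 probe with 2 spots. Gene names or descriptions in the files gave 7 of the 9 probes, and RefSeq accessions gave the other 2, HSP90AA1 and PTGES3, which the files list under older names. The probes of NR3C2 and HSP90AB1 were designed from expressed sequence tags that the files assign to these genes by description only. H6PD, which makes NADPH for HSD11B1, was not analysed here. In all, 7 of the 9 genes were well above background on at least 7 of the 15 arrays and entered the test. NR3C2 and HSD11B1 did not.

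The samples were total RNA of thymus, collected at slaughter from 15 Holstein cows, 1 cow per array and 1 dye. The prednisolone group held 8 cows given 30 mg per head daily by mouth for 35 days, and the control group held 7 cows with no treatment. No age is given in the labels. Prednisolone is a synthetic glucocorticoid, and the design asks how a low oral dose alters transcripts in an organ that glucocorticoids are known to shrink.

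In a resting cell the receptor is kept in the cytoplasm by a cycle of chaperones. Hsc70 and its helpers fold the new receptor, STIP1 hands it to the Hsp90 proteins HSP90AA1 and HSP90AB1, PTGES3 (p23) stabilises the finished complex, and the immunophilin FKBP4 links it to the motor that carries it to the nucleus. Whether a natural glucocorticoid reaches the receptor also depends on local enzymes: HSD11B1 regenerates active cortisol from cortisone with NADPH that H6PD supplies, and HSD11B2 inactivates cortisol and so guards the mineralocorticoid receptor NR3C2. Prednisolone and prednisone are interconverted by the same pair of enzymes.

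Values are log2 signals minus the 75th percentile of the same array, so a value of a gene can be compared between cows but not with that of another gene. The tissue label was checked with marker genes. A list of 12 immature thymocyte markers was used, which also holds general T cell genes such as CD3E and LCK. The 10 on the array were above background in all 15 cows. Their means were 2.68 to 2.94 in prednisolone cows and 2.57 to 2.85 in control cows. Of 9 thymic epithelial markers, 8 were above background in all 15. The arrays came from 4 slides. Slides 1 to 3 held both groups, and slide 4 held 3 prednisolone cows (animals 2, 4 and 7) and no control cow. On slide 4, 76.4% to 77.7% of bovine spots were above background, against 67.1% to 76.0% on slides 1 to 3. For what is measured on slide 4 alone, slide and treatment cannot be told apart.

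No difference between prednisolone and control cows was detected in any of the 7 tested genes. In limma's fit over all 16069 kept probes with Benjamini-Hochberg adjustment, 0 of 7 had an adjusted p under 0.05 and 0 of 7 had an unadjusted p under 0.05. The background was the same at the first threshold, with 0 of 16069 probes called (0%), and 1138 probes (7.08%) had an unadjusted p under 0.05. In direction, 3 of the 7 were higher in prednisolone cows and 4 were lower, with a median log2 difference of −0.014, beside 6166 higher and 6082 lower among all 12248 kept genes and a median of 0.00081. In whole-thymus RNA, fewer cells of a type and less transcript per cell cannot be told apart.

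NR3C1, the receptor itself, differed between the groups by less than the spread between cows. In prednisolone cows its lowest, median and highest values were 1.59, 2.03 and 2.33, against 1.601, 2.109 and 2.44 in control cows. The groups overlapped almost fully, and the highest and lowest cows of all 15 differed 1.80-fold. The means were 2.0 ± 0.28 in prednisolone cows and 2.07 ± 0.28 in control cows (SD, n = 8 and 7). The log2 difference was −0.069 with an SE of 0.141 and a limma adjusted p of 0.948. The 95% interval of the difference ran from 0.774-fold to 1.17-fold. With slide as a block the difference was −0.096, and without slide 4 it was 0.015.

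The genes whose pattern over the 15 arrays was most like that of NR3C1, after centring on slide means, were SNF8 (r = 0.919), UBE2D3 (r = 0.909) and COMMD8 (r = 0.895), out of 12188 genes compared. Without the centring the same correlations were 0.837, 0.362 and 0.873. These values describe likeness in 15 animals that share arrays and slides.

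NR3C2, the mineralocorticoid receptor, which also binds cortisol with high affinity, was near the limit of detection. Its probe was well above background in 3 of 8 prednisolone cows and in 0 of 7 control cows. The signals in those 3 cows, all on slide 4, were 31.9 in animal 2, 22.7 in animal 4 and 15.6 in animal 7. Prednisolone animal 8, on slide 2, had a signal of 29.1 that was not well above background, and control cows had 3.94 to 18.1. The signals of the groups therefore overlapped, and 2 prednisolone cows off slide 4 had signals as high as those called above background.

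HSD11B1, the reductase that regenerates cortisol, was also dim. It was well above background in the same 3 of 8 prednisolone cows and in 0 of 7 control cows. Its signal was 96.8 in prednisolone animal 4, 38.4 in animal 7 and 30.7 in animal 2. In the 5 prednisolone cows on the other slides it was 6.67 to 25.4, and in control cows it was 3.87 to 15.0. The 3 slide 4 cows had the highest signals of all 15, and the other prednisolone cows overlapped with the controls. No fold or treatment test is given here for either dim gene, because the bound set by the dimmest measurable probes in control cows lay above the prednisolone mean.

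HSD11B1 is abundant in liver, and a list of liver genes stood high in the same animal in which it was highest. This list was chosen after the values were seen, and 6 of its 11 genes were kept: APOA1, APOA2, TTR, AHSG, TF and AMBP. Their mean was 0.79 in prednisolone animal 4 and −0.51 in prednisolone animal 3, while the other 6 prednisolone cows lay between −3.80 and −3.13 and the control cows between −3.82 and −3.01. Prednisolone animal 4 was the highest cow for 5 of the 6, the plasma iron carrier TF reaching 2.48 there. In the 7 control cows TF lay between −6.22 and −3.85. In prednisolone animal 3, the other cow with high liver genes, the HSD11B1 signal was 22.1 and not above background. Prednisolone animals 7 and 2, in which HSD11B1 was above background at 38.4 and 30.7, had liver means of −3.50 and −3.71. These lay inside the control range. The part of liver transcripts in the HSD11B1 signal was not tested.

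**Figure D1:**
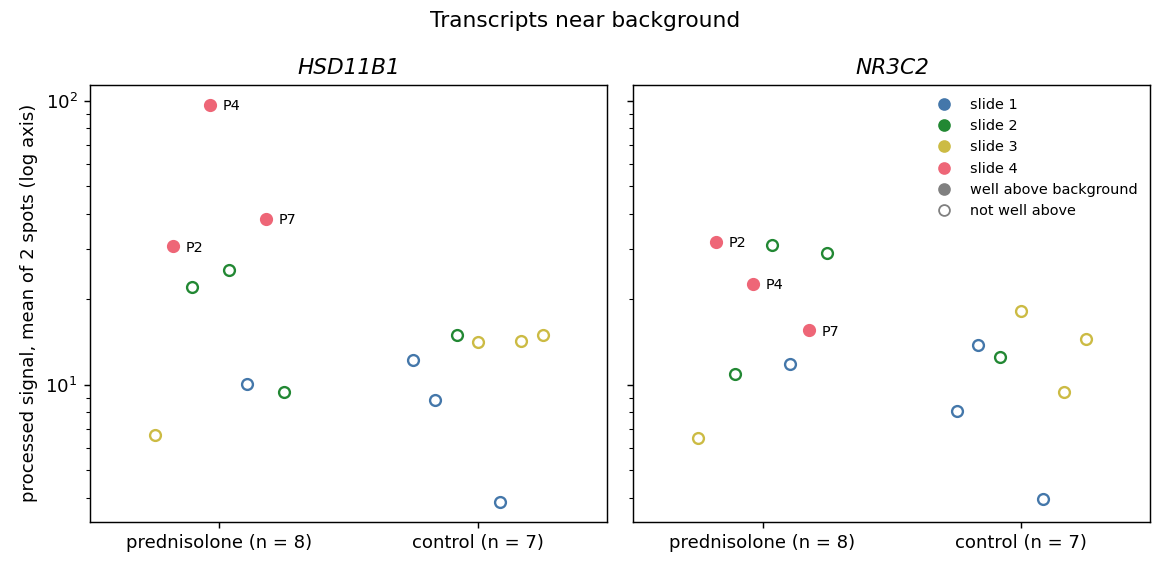
Processed signal of HSD11B1 and NR3C2 in each cow on a log axis, prednisolone left of control, coloured by slide, with filled points where the probe was well above background. Filled points occur in the 3 prednisolone cows of slide 4 and in no other cow, and HSD11B1 is highest in prednisolone animal 4 at 96.8.

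HSD11B2, the dehydrogenase that inactivates cortisol, had the largest difference in size among the 7 tested genes, and it lay with slide 4. In prednisolone cows its lowest, median and highest values were −6.06, −4.99 and −4.71, against −5.19, −4.80 and −4.22 in control cows. The lowest 3 cows of all 15 were the 3 on slide 4, at −6.06 in prednisolone animal 7, −5.69 in animal 2 and −5.31 in animal 4. The other 5 prednisolone cows lay at −5.00 or above, inside the control range. The means were −5.16 ± 0.49 in prednisolone cows and −4.76 ± 0.30 in control cows (SD, n = 8 and 7). The log2 difference was −0.40 with an SE of 0.20, a limma unadjusted p of 0.0638 and an adjusted p of 0.704, with a 95% interval from 0.563-fold to 1.02-fold. It was −0.099 with slide as a block, and leaving out slide 4 gave −0.089. Within the slides that hold both groups it was −0.22 on slide 1, −0.042 on slide 2 and −0.038 on slide 3.

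HSD11B2 differed between slides mainly through slide 4, which held prednisolone cows only. The slide means were −4.62, −4.82, −4.96 and −5.69 for slides 1 to 4. Slides accounted for 76.1% of the spread between cows, with no allowance for treatment. In limma's F test of slides with treatment in the model, HSD11B2 had an adjusted p of 0.0111. It was 1 of 7 members to pass that test, beside 4910 of 16053 probes (30.6%). Adjusted p in that test was 0.0878 for PTGES3, 0.120 for NR3C1 and 0.162 for HSP90AA1, and at least 0.550 for FKBP4, HSP90AB1 and STIP1. The HSD11B2 probe was weak: its signal was 19.6 to 69.7 in prednisolone cows and 27.95 to 64.35 in control cows, and its 2 spots on an array differed by a median of 0.45 and by up to 1.15 (log2). With quantile normalization 0 of 7 members passed the slide test. When slide 4 was left out, the adjusted p of HSD11B2 in limma's slide test was 0.289. Without control animal 6 and prednisolone animal 7 the adjusted p in limma's slide test was 0.0531 for HSD11B2 and 0.0331 for NR3C1, so that NR3C1 was then the member that passed.

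HSD11B1 could not serve as the pattern of the enzymes, being dim, so HSD11B2 was used. Its nearest genes after slide centring were B9D1 (r = 0.886), CPLX2 (r = 0.870) and PROS1, which encodes the anticoagulant protein S (r = 0.864). Without the centring r was 0.816, 0.529 and 0.842.

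**Figure D2:**
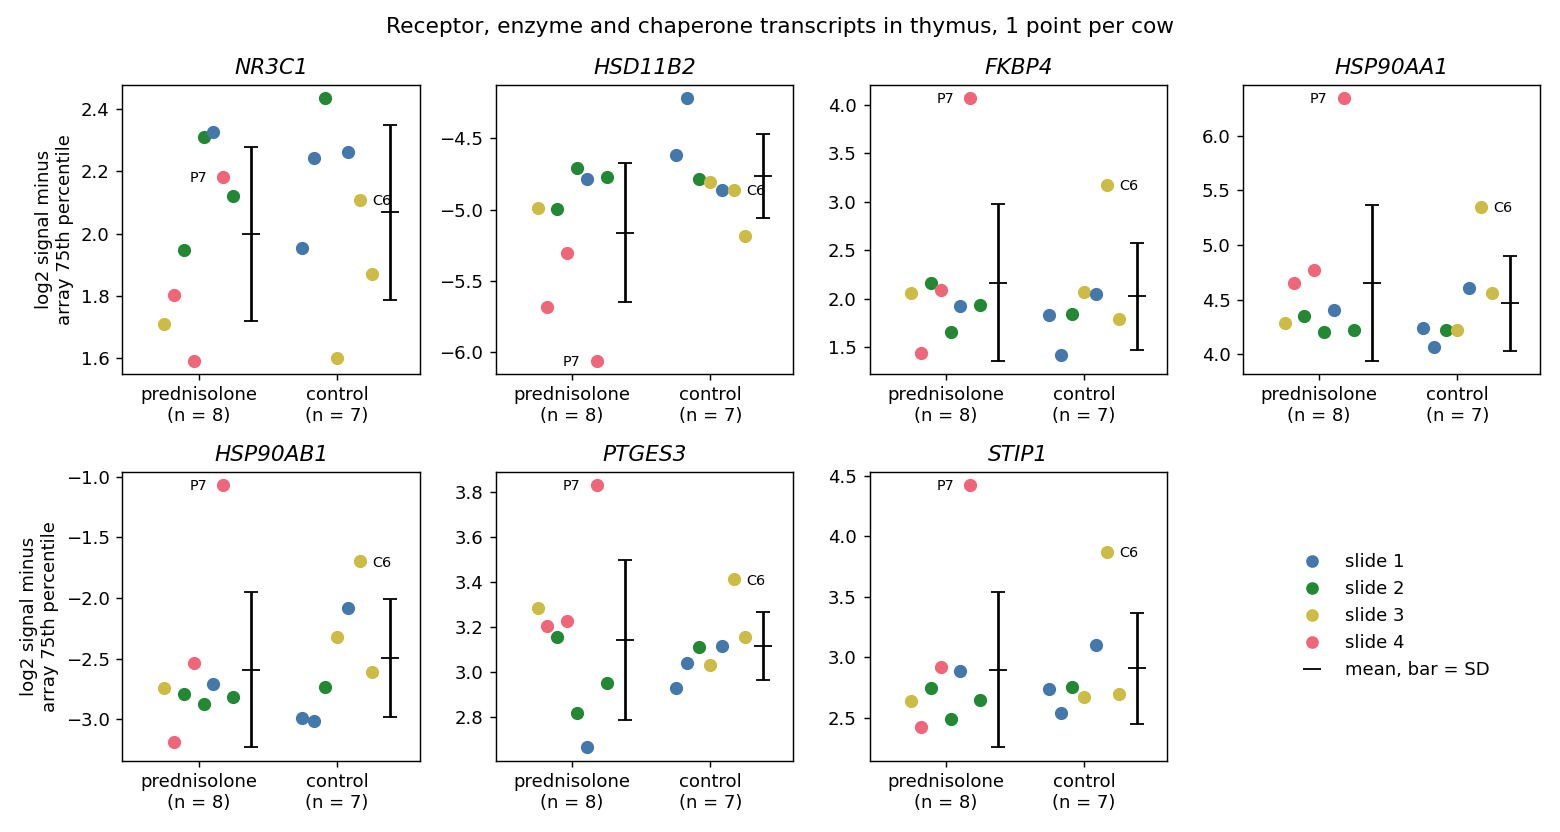
Log2 signal minus the array's 75th percentile of the 7 tested genes in each cow, prednisolone left of control, coloured by slide, with the mean and SD of each group beside the points. The groups overlap for every gene, prednisolone animal 7 is the highest cow for all 5 chaperone genes with control animal 6 second, and the 3 slide 4 cows are lowest for HSD11B2.

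The chaperones did not separate the groups, but they separated single cows. Prednisolone animal 7 was the highest of all 15 cows for 5 of 5 chaperone genes, and control animal 6 was the second highest for 5 of 5. These were 1 cow of each group, on slides 4 and 3.

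HSP90AA1, the inducible Hsp90, had a lowest, median and highest value of 4.20, 4.37 and 6.34 in prednisolone cows, against 4.06, 4.24 and 5.35 in control cows. Prednisolone animal 7 stood at 6.34 while the other 7 prednisolone cows reached 4.77, and control animal 6 stood at 5.35 while the other 6 control cows reached 4.61. Over the median of the remaining 13 cows these were 4.16-fold and 2.09-fold. The group means were 4.65 ± 0.71 in prednisolone cows and 4.47 ± 0.44 in control cows (SD, n = 8 and 7), a log2 difference of 0.19 with an SE of 0.29 and a limma adjusted p of 0.927. Its sign turned with the slides: the difference was −0.095 with slide as a block, and leaving out slide 4 gave −0.17.

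HSP90AB1, the constitutive Hsp90, had −3.18, −2.77 and −1.07 as its lowest, median and highest values in prednisolone cows, against −3.01, −2.61 and −1.70 in control cows. Prednisolone animal 7 was 3.20-fold and control animal 6 was 2.07-fold above the median of the other 13. Apart from these, control animals 5 and 4 were the next highest, at −2.09 and −2.32. The means were −2.59 ± 0.64 in prednisolone cows and −2.49 ± 0.49 in control cows (SD, n = 8 and 7). The log2 difference was −0.098 with an SE of 0.278 and a limma adjusted p of 0.963. With slide as a block it was −0.21, and without slide 4 it was −0.29.

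STIP1, the co-chaperone Hop that bridges Hsp70 and Hsp90, had 2.42, 2.70 and 4.43 in prednisolone cows, against 2.54, 2.74 and 3.87 in control cows, again as lowest, median and highest. The second highest prednisolone cow was at 2.92 and the second highest control cow at 3.10, so both groups lay close together below 1 high animal each. Prednisolone animal 7 was 3.31-fold and control animal 6 was 2.26-fold above the median of the other 13. The means were 2.90 ± 0.64 in prednisolone cows and 2.91 ± 0.46 in control cows (SD, n = 8 and 7), a log2 difference of −0.014 with an SE of 0.273 and a limma adjusted p of 0.996. The difference was −0.16 with slide as a block, and leaving out slide 4 gave −0.23.

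FKBP4, the immunophilin FKBP52, varied over the widest range of the 7 tested genes, 6.29-fold between the highest and lowest cow. Its lowest, median and highest values were 1.44, 2.0 and 4.07 in prednisolone cows, against 1.42, 1.84 and 3.18 in control cows. Prednisolone animal 7 was 4.42-fold and control animal 6 was 2.38-fold above the median of the other 13. Its 2 spots agreed closely, with a median difference of 0.053 (log2), and in prednisolone animals 2 and 4 the value rests on 1 spot because the other was marked an outlier. The means were 2.17 ± 0.81 in prednisolone cows and 2.03 ± 0.55 in control cows (SD, n = 8 and 7). The log2 difference was 0.14 with an SE of 0.34 and a limma adjusted p of 0.957. It was −0.016 with slide as a block, and leaving out slide 4 gave −0.078.

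PTGES3, the Hsp90 co-chaperone p23, varied least of the 5 chaperone genes, 2.24-fold over all cows. It had 2.67, 3.18 and 3.83 as lowest, median and highest values in prednisolone cows, against 2.93, 3.11 and 3.41 in control cows. Prednisolone animal 7 was 1.65-fold and control animal 6 was 1.23-fold above the median of the other 13. The means were 3.14 ± 0.35 in prednisolone cows and 3.11 ± 0.15 in control cows (SD, n = 8 and 7), a log2 difference of 0.028 with an SE of 0.140 and a limma adjusted p of 0.981. The difference was −0.14 when slide was a block and also when slide 4 was left out.

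The 95% intervals for the treatment difference of the chaperones ran from 0.742-fold to 1.75-fold for HSP90AA1, from 0.620-fold to 1.41-fold for HSP90AB1, from 0.662-fold to 1.48-fold for STIP1, from 0.670-fold to 1.82-fold for FKBP4 and from 0.829-fold to 1.25-fold for PTGES3. Without prednisolone animal 7 and control animal 6, a setting chosen after seeing the data, the spread was much smaller and no member passed. The log2 difference then was 0.093 with an SE of 0.120 for HSP90AA1, −0.18 with an SE of 0.15 for HSP90AB1, −0.072 with an SE of 0.107 for STIP1, 0.062 with an SE of 0.136 for FKBP4 and −0.020 with an SE of 0.105 for PTGES3.

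**Figure D3:**
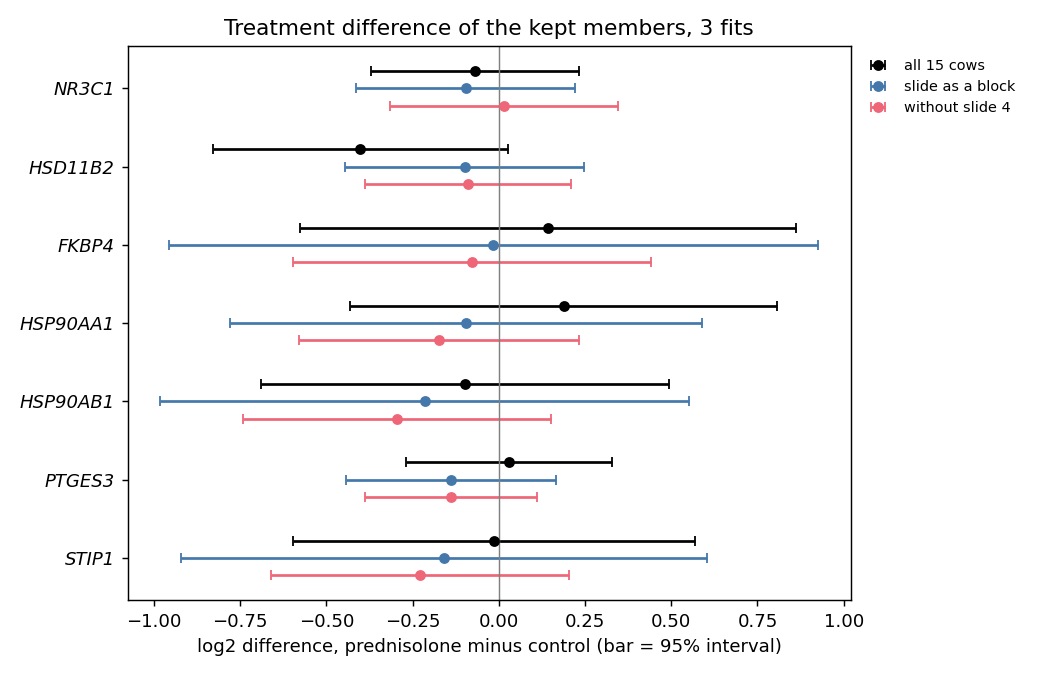
Log2 difference, prednisolone minus control, of the 7 tested genes with 95% intervals from 3 limma fits: all 15 cows, slide as a block, and slide 4 left out. Every interval spans 0, and the HSD11B2 difference of −0.40 over all cows is −0.099 with slide as a block, and leaving out slide 4 gave −0.089.

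The chaperone genes varied together from cow to cow. For each of the 10 pairs among the 5 genes, values were centred on their slide mean and tested by 100000 two-sided permutations of the cows within slides, adjusted over the 10 pairs. In all, 9 of 10 pairs passed by Pearson's r and 9 of 10 by Spearman's rho. Pairs of other genes were not put through this test, so no background share can be given. The 6 pairs among FKBP4, HSP90AA1, HSP90AB1 and STIP1 had r between 0.919 and 0.977 and rho between 0.789 and 0.961, with adjusted permutation p of 0.0009 to 0.00798 for r and 0.0023 to 0.0133 for rho (unadjusted 0.00012 to 0.00479 and 0.00046 to 0.00796). The 4 pairs with PTGES3 had r between 0.703 and 0.749 and rho between 0.571 and 0.689, with adjusted permutation p of 0.035 to 0.0578 for r and 0.0415 to 0.0883 for rho (unadjusted 0.0245 to 0.0578 and 0.029 to 0.0883). HSP90AB1 with PTGES3 was the pair that did not pass. Without slide centring r was 0.870 to 0.965 in the 6 pairs and 0.726 to 0.834 in the 4 pairs. With 3 or 4 cows, each slide held too few for a value of r within a slide.

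Part of this relation rested on the high cows. When the 2 cows farthest from the median of the first gene of a pair were left out, r was 0.630 to 0.945 in the 6 pairs and 0.145 to 0.641 in the 4 pairs with PTGES3. Those 2 cows were prednisolone animal 7 and control animal 6 in 3 of the 10 pairs. In the other pairs they were prednisolone animal 7 and prednisolone animal 2 or 6, so the high control animal 6 stayed in. Prednisolone animal 2 was not a high cow, being the lowest of all for HSP90AB1 and STIP1. When prednisolone animal 7 and control animal 6 were left out of every pair, 3 of 10 pairs still passed, all of them with STIP1. The partners were HSP90AB1 (r = 0.861, adjusted permutation p = 0.0197), FKBP4 (r = 0.859, adjusted permutation p = 0.0476) and HSP90AA1 (r = 0.752, adjusted permutation p = 0.0197), each over 13 cows. The other 3 pairs without PTGES3 had r of 0.509 to 0.684 and did not pass, with an adjusted permutation p of 0.180 for each. The 4 pairs with PTGES3 had r of 0.133 to 0.214 and rested on prednisolone animal 7 and control animal 6. These values were centred on slides. Without slide centring and without the same 2 animals, r was lower in most pairs. It was 0.194 (FKBP4 with HSP90AA1) to 0.758 (HSP90AB1 with STIP1) in the 6 pairs, and 0.426 for HSP90AA1 with STIP1. In the 4 pairs with PTGES3 it was −0.018 to 0.404. The uncentred values over 13 cows were not put through the permutation test.

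The genes nearest in pattern to HSP90AB1 after slide centring were also chaperones. They were the small heat shock protein gene HSPB1 (r = 0.957), STIP1 (r = 0.949) and LOC504207, which the files describe as similar to DNAJB1 (r = 0.935), out of 12188 genes. Without the centring r was 0.931, 0.945 and 0.868. Prednisolone animal 7 and control animal 6 were the highest cows for HSP90AB1 and for each of these genes. No r without these animals was computed for HSPB1 or LOC504207.

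NR3C1 and HSD11B2 did not share the pattern. NR3C1 was 1.17-fold in prednisolone animal 7 and 1.11-fold in control animal 6 relative to the median of the other 13, and the highest NR3C1 values were in control animal 3 and prednisolone animal 6. HSD11B2 was lowest in prednisolone animal 7, at 0.418 of that median, and in control animal 6 it was 0.960 of it.

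The wider chaperone cycle was described with a list of 21 genes, all of them kept. None passed the test of treatment, 1 had an unadjusted p under 0.05, and 8 were higher and 13 lower in prednisolone cows, with a median log2 difference of −0.049. Named by the smallest p, HSF1, the master transcription factor of heat shock genes, had means of −5.82 in prednisolone cows and −5.51 in control cows, a log2 difference of −0.32 with an SE of 0.13 and a limma adjusted p of 0.688. It was above background in 6 of 8 prednisolone cows and 7 of 7 control cows. PPP5C, a receptor-associated phosphatase, differed by 0.15 with an SE of 0.08 (limma adjusted p of 0.716). The Hsp70 exchange factor BAG1 differed by −0.33 with an SE of 0.23 (limma adjusted p of 0.802). With slide as a block the differences were −0.57 for HSF1, 0.11 for PPP5C and 0.092 for BAG1, so that of BAG1 changed sign. The BAG1 probe was dim, above background in 6 of 7 control cows.

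The same 2 cows stood out in this list. Prednisolone animal 7 and control animal 6 were the highest 2 cows for 10 of the 21 genes (47.6%), against 326 of all 12248 kept genes (2.66%). Both cows had been singled out by the member chaperones, and this list holds genes of the same kind. The count therefore describes the list and is not an independent test. The examples that follow were chosen after their values were seen. HSPH1, a nucleotide exchange factor of Hsp70, was 18.1-fold in prednisolone animal 7 and 7.76-fold in control animal 6 relative to the median of the other 13. Its value was 6.35 in prednisolone animal 7 and 1.57 to 2.59 in the other prednisolone cows, against 5.12 in control animal 6 and 1.56 to 3.08 in the other control cows.

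HSPA1A, the stress-inducible Hsp70, was 11.4-fold in prednisolone animal 7 and 6.19-fold in control animal 6. It has near-identical copies in mammals, and its 3 kept probes differed in their treatment difference, from −0.98 to −0.025. DNAJB1, the Hsp40 that feeds clients to Hsp70, was 4.25-fold and 3.91-fold in the same animals, and AHSA1, which stimulates the Hsp90 ATPase, was 3.20-fold and 2.01-fold. The constitutive Hsc70 gene HSPA8 was 3.45-fold in prednisolone animal 7 and 2.05-fold in control animal 6. From the highest, prednisolone animal 7 ranked 2 of 15 for the immature thymocyte mean (2.91) and 8 for the epithelial mean (0.88). Control animal 6 ranked 8 (2.75) and 9 (0.86). For the erythroid mean prednisolone animal 7 ranked 15 (−2.32) and control animal 6 ranked 2 (−0.79). Prednisolone animal 7 ranked 14 for fibroblast and matrix markers, and control animal 6 ranked 14 for endothelium. Control animal 6 was the highest cow for the mean of the 4 kept skeletal muscle markers, at −1.67, and prednisolone animal 7 was seventh at −2.43. The prednisolone cows ranged from −4.53 to −1.96 and the control cows from −3.68 to −1.67. The part of muscle or of other cell types in the chaperone values was not tested.

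**Figure D4:**
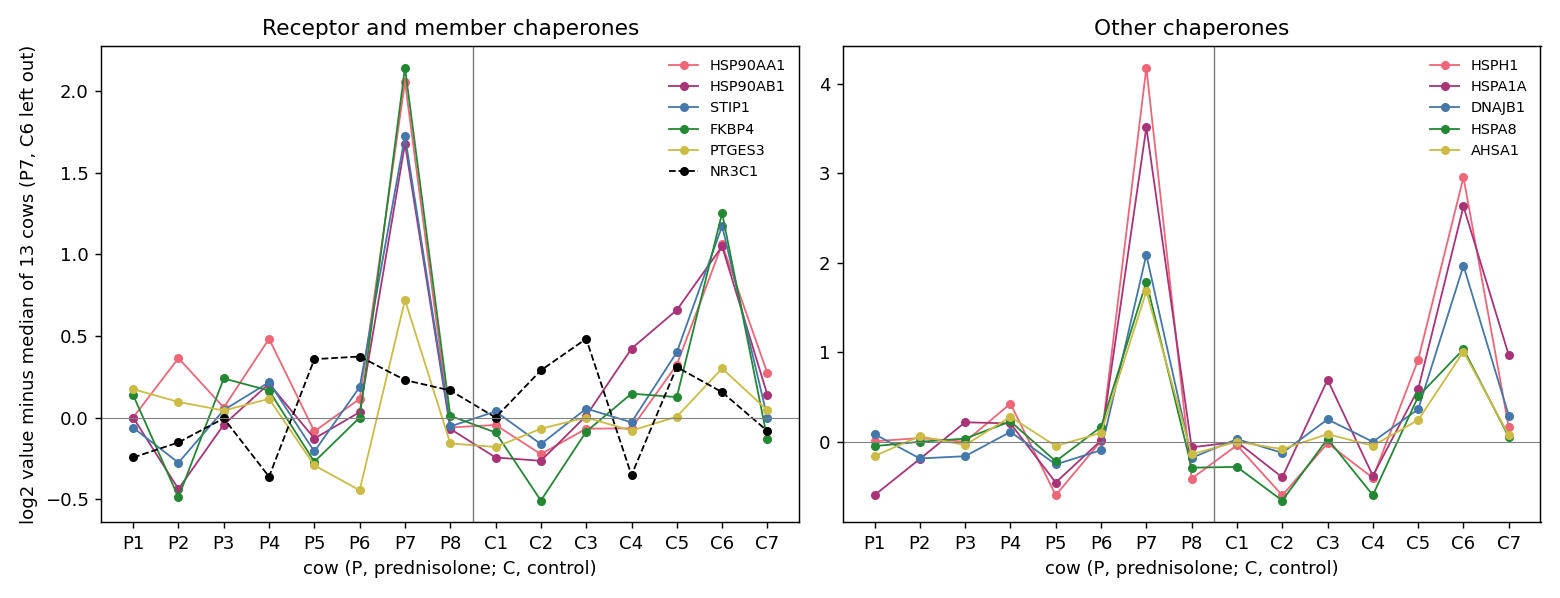
Log2 value of each cow minus the median of the 13 cows other than prednisolone animal 7 and control animal 6, for NR3C1 and the 5 chaperone members on the left and for 5 other chaperone genes on the right. Prednisolone cows stand left of control cows, the panels have different scales, and the lines join cows only to guide the eye. Prednisolone animal 7 and control animal 6 are high for all 10 chaperone genes, from 1.65-fold and 1.23-fold (PTGES3) to 18.1-fold and 7.76-fold (HSPH1), and not for NR3C1.

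Genes of steroid metabolism and NADPH supply were described with a list of 23, of which 21 were on the array and 17 were kept. None passed, 2 had an unadjusted p under 0.05, and 10 were higher and 7 lower in prednisolone cows, with a median log2 difference of 0.023. SLC37A4, the transporter that brings glucose 6-phosphate to H6PD and the glucose 6-phosphatases in the endoplasmic reticulum, had the smallest p and did not pass (limma adjusted p of 0.505). The probe was dim, above background in 7 of 8 prednisolone cows and in 1 of 7 control cows. It met the filter through the prednisolone cows, and no size of difference is given because the control level was measured in 1 cow. FDX1, the electron donor of mitochondrial steroid-making P450 enzymes, differed by −0.36 with an SE of 0.15 (limma adjusted p of 0.673), and G6PC3, a ubiquitous glucose 6-phosphatase, by 0.16 with an SE of 0.09 (limma adjusted p of 0.737).

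Of 8 other nuclear receptors listed, 5 were on the array and 2 were kept, and neither passed. The oestrogen receptor gene ESR1 differed by 0.18 with an SE of 0.22, and the orphan receptor gene ESRRA by −0.037 with an SE of 0.062. Of 19 genes that modify the receptor, carry it into the nucleus or act with it there, all 19 were kept and 0 passed, 11 being higher and 8 lower in prednisolone cows, with a median log2 difference of 0.052. The smallest p in that list belonged to PPP2CA, the catalytic subunit of a phosphatase found with the receptor complex (0.33, SE 0.16), the kinase gene MAPK8 (−0.45, SE 0.22) and the importin gene KPNA2 (−0.12, SE 0.07). With slide as a block the first 2 were 0.13 and −0.19.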

How the data were processed

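Each of 15 thymus samples was hybridised to 1 Agilent bovine array. The deposited scanner files give the intensity of every spot. Feature Extraction 9.5.1.1 had subtracted background and removed a multiplicative trend, per the file headers. The flags used (well above background, outlier, saturated) were set by that software. The authors' deposited table holds intensity on a linear scale (44396 rows, column medians 188.5 to 274.1, centring unknown) and served as an alternative. The submitters' processing notes name R 2.11.1.

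Here log2 processed signals were centred on each array's 75th percentile over 42990 bovine spots, outlier spots were left out, and spots of a probe were averaged. Probes needed to be above background on 7 or more of the 15 arrays. A probe counted as above background on an array when any of its spots was flagged well above background. Kept probes were tested with limma 3.58.1 in R 4.3.3, with Benjamini-Hochberg adjustment over all 16069 kept probes and a threshold of 0.05. Probes were named by gene name, description, gene number or accession, through RefSeq where needed, and 4316 stayed unnamed. A gene was represented by its brightest kept probe. Of each list, the 3 genes with the smallest p were named, and for 3 members the 3 genes nearest in pattern. The members and lists were chosen with earlier results of these data known. Precision is limited by the number of arrays. The limma fits of treatment and of slide were run on simulated data in which probes varied independently, unlike these data. The permutation and Dixon tests were not run on simulated data. Alternatives covered scaling, background correction, filters, slides, weights and left-out animals. No probe of H6PD was found by these names.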

Additional observations from a re-analysis of the deposited data

Results flagged for a closer look

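Within a treatment group, single cows stood far from the rest for the chaperone genes. The gap to the nearest cow, as a share of the group's whole range, was above the 95% critical value of Dixon's test in 7 of 18 groups tested. All 7 came from prednisolone animal 7 or control animal 6, in genes that varied together. The 18 groups are therefore not independent, and the count cannot be set against a chance rate. The share of all kept genes with such a gap was not computed. The critical values are 0.526 for 8 cows and 0.568 for 7.

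Among prednisolone cows, animal 7 stood above the rest for STIP1 (0.754), HSP90AA1 (0.735), FKBP4 (0.723) and HSP90AB1 (0.695). Among control cows, animal 6 stood above the rest for FKBP4 (0.628), STIP1 (0.579) and HSP90AA1 (0.574). For PTGES3, NR3C1, NR3C2, HSD11B1 and HSD11B2 no cow passed the critical value in either group. The signals of NR3C2 and HSD11B1 were not well above background in most cows, so Dixon's test says little for them. No measure of tissue handling or RNA quality was used here.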

How the results depend on the processing

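No member passed the treatment test under any of the 32 alternatives, and HSD11B2 was lower in prednisolone cows under all 32, from −0.038 to −0.85. The largest came with normexp, which moved the median of all probes by −0.21. Over all kept probes 0 passed, but 1 passed with quantile normalization, 2 within slide 3 and 0 to 3 when 1 cow was left out (3 without prednisolone animal 1). An unadjusted p under 0.05 was reached by 1138 probes (640 higher and 498 lower in prednisolone cows), by 2987 with normexp (371 and 2616), by 1728 without the filter on dim probes (824 and 904) and by 1197 with median centring (547 and 650). The balance went the other way without slide 4 (1044 and 421), with array weights (1006 and 461) and within slide 2 (630 and 213). The members differing between slides, 1 as reported, were 3 with median centring and 0 with quantile normalization, normexp, the authors' values or without slide 4. Without control animal 6 and prednisolone animal 7 it was again 1, but NR3C1 (limma adjusted p of 0.0331) in place of HSD11B2 (0.0531). Without the filter on dim probes HSD11B1 (limma adjusted p of 0.0321) passed the slide test beside HSD11B2 (0.0093). HSD11B1 was well above background only on slide 4, so its values on the other slides were not measured levels.

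Member differences close to 0 changed sign, none being called. With slide as a fixed block they were −0.095 for HSP90AA1, −0.14 for PTGES3 and −0.016 for FKBP4, and with slide as a random block −0.060 for PTGES3. Without slide 4 they were −0.17 for HSP90AA1, −0.14 for PTGES3, −0.078 for FKBP4 and 0.015 for NR3C1. Within slide 1 they were 0.095 for STIP1, −0.36 for PTGES3 and 0.17 for NR3C1, within slide 2 −0.14 for PTGES3, and within slide 3 −0.42 for HSP90AA1 and −0.28 for FKBP4. STIP1 was 0.0083 with median centring and 0.093 with normexp, which gave 0.024 for NR3C1. PTGES3 was −0.053 with array weights and −0.020 without control animal 6 and prednisolone animal 7. Leaving out 1 cow at a time gave −0.13 to 0.33 for FKBP4, −0.054 to 0.33 for HSP90AA1, −0.32 to 0.035 for HSP90AB1, −0.070 to 0.096 for PTGES3, −0.23 to 0.15 for STIP1 and −0.15 to −0.0077 for NR3C1. HSP90AB1, −0.098 as reported, was −0.48 with normexp and −0.54 within slide 3. The cause of these changes was not tested.

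Of the pairs of chaperones, 9 passed as reported, 10 without slide centring, 6 with quantile normalization and 3 without control animal 6 and prednisolone animal 7, which was chosen after seeing the data. No paired analysis was possible because the labels give no replicate number shared by the groups. Signals near background limit HSD11B1, HSD11B2 and NR3C2.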
